A study of Mus musculus with 4 samples.

Results

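The genes described here build and load MHC class I molecules. They are the heavy chains H2-K1 and H2-D1, the light chain B2m, the peptide transporter subunits Tap1 and Tap2, the loading factor Tapbp, the immunoproteasome subunits Psmb8, Psmb9 and Psmb10, and the regulator Nlrc5. These 10 genes were taken by name from a table of 53465 genes, and all 10 passed the filter on low counts that left 13528 genes to test. RNA was sequenced from CD8+ T cells of mouse spleen after 24 h with beads carrying antibodies to CD3 and CD28, which stand in for antigen and costimulation. There were 4 libraries: 2 from cells labelled wild type (WT) and 2 from cells labelled PP2Cm KO, described as biological replicates. PP2Cm, also written PP2Cm-/- in the knockout, is the mitochondrial phosphatase encoded by Ppm1k, and both groups were stimulated alike. The allele, its cell specificity, and the strain and age of the mice could not be taken from the labels.

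Class I molecules carry peptides from inside the cell to its surface, where CD8+ T cells read them. Peptides are cut by the proteasome, pumped into the endoplasmic reticulum by the TAP transporter, and fitted into a heavy chain paired with beta-2 microglobulin while tapasin holds the empty molecule at the transporter. In lymphocytes and under interferon, 3 inducible catalytic subunits replace those of the constitutive proteasome. NLRC5 is a transactivator that is recruited to the promoters of this gene set. Activated T cells carry class I molecules themselves and make interferon gamma, a known inducer of the set.

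The genotype labels conflict. The title and genotype field of each library name 1 genotype and its description code begins with the letters of the other, so groups carry the name in the title and are called "labelled". Values are given below for the libraries labelled WT, replicate 1 first, against those labelled KO. Ppm1k itself went against the labels, with 102 and 94 counts against 157 and 206 (log2 fold change 0.97, SE 0.23, adjusted p = 0.186 by edgeR). Its value ran from 0.59 to 1.24 over 11 alternative fits, and was highest with labelled WT replicate 1 left out. Every sign below would turn if the description codes were right. The libraries held 12967251 to 17316284 counts, and the 8 CD8 T cell markers summed to 2406 to 2867 CPM (counts scaled to library size, with TMM factors). Over all genes 28 passed an adjusted p of 0.05, and the median log2 fold change was -0.01.

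Of the 10 genes, 7 lie in or next to the MHC on chromosome 17, 2 lie on chromosome 8 (Psmb10 and Nlrc5) and 1 on chromosome 2 (B2m). Psmb9, Tap1, Psmb8 and Tap2 stand side by side within 34334 bases, from 34181988 to 34216321 on chromosome 17 in GRCm38. Psmb9 and Tap1 point away from each other, and their annotated exons overlap by 212 bases on opposite strands, where counting without strand could not tell their reads apart. H2-K1 runs from 33996017 to 34000333 and H2-D1 from 35262730 to 35267499 on the same chromosome.

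Promoter sequence is shown because the heavy chains and B2m are textbook examples of a shared class I promoter layout, and because Tap1 and Psmb9 start from 1 stretch of DNA. RefSeq windows (GRCm38.p6) were found for 8 of the 10 genes, all but Tap2 and Nlrc5, each from 250 bases before to 50 after the start. Both strands were searched for the NF-kappaB consensus, for TTTCNNTT (found within interferon response elements), for TGACG (found within cyclic AMP response elements) and for CCAAT, bound by NF-Y. Capitals mark the matches, which may overlap. Each sequence reads 5′ to 3′ on the strand of its gene, and the shared stretch on the plus strand, which is that of Tap1.
H2-K1, chr17:34000334-34000468, minus strand: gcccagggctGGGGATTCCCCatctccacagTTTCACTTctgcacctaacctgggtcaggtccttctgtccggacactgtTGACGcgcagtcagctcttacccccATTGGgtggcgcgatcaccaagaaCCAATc
H2-D1, chr17:35262913-35263055, plus strand: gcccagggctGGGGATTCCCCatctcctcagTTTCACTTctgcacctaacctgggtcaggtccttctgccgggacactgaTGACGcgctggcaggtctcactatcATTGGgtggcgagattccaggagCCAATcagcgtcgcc
B2m, chr2:122147540-122147648, plus strand: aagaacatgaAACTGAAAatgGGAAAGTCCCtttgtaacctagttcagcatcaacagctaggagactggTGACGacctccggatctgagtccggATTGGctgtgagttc
Tap1 and Psmb9, chr17:34187331-34187555, plus strand: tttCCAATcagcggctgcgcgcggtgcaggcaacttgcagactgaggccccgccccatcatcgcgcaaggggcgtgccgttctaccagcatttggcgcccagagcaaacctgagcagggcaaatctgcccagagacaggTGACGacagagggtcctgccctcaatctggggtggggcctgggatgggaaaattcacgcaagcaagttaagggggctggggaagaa

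In H2-K1, H2-D1 and B2m the same kinds of match stood within the window: an NF-kappaB consensus, TTTCNNTT, TGACG and CCAAT. The H2-K1 and H2-D1 stretches, lined up at their first base without gaps, were identical at 111 of 135 positions. NF-kappaB consensus matches were found in 3 of the 8 windows and in 8.5% of all 32851 windows in the table, and TTTCNNTT in 3 and in 23.9%. TGACG was in 5 of the 8 windows against 20.8% of all, and CCAAT in 6 against 37.4%. The Tap1 and Psmb9 windows share 275 of their 300 bases, so they hold the same TGACG and CCAAT. A match describes the letters and is not a measured binding site.

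Levels can be set against each other between genes only per length. The deposited FPKM imply gene lengths of 1 to 2.48 times the union of annotated exons among the 10 genes, so FPKM (counts scaled for gene length and library total) were also recomputed with that union. On that scale the mean over the 4 libraries was 992 for B2m, 453 for H2-D1 and 344 for H2-K1, and no library of any of these 3 genes overlapped the next. Psmb8 (106), Tapbp (83.2), Tap1 (52.3), Tap2 (43.0), Psmb10 (35.9), Psmb9 (25.2) and Nlrc5 (24.9) followed, and each overlapped the gene after it across libraries. With the deposited FPKM the top 5 kept this order, and Tap2 (30.3) stood above Tap1 (24.4). Reads of the heavy chains are hard to place: 22.8% of the 31-base words of H2-K1 transcripts and 26.7% of those of H2-D1 also occur in transcripts of other genes, mostly other class I genes, and how the authors divided such reads is not stated.

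All 10 genes had lower fitted levels in the libraries labelled KO, by 1.11- to 1.45-fold, and none passed the threshold over all genes. The median log2 fold change of the 10 was -0.40 beside -0.01 over all genes tested, of which 51.9% were negative. By edgeR 0 of 10 had an adjusted p under 0.05, where 0.207% of all genes did (0.103% lower and 0.103% higher), and by DESeq2 0 of 10, where 1.88% did (1.26% lower). An unadjusted p under 0.05 with a lower level was reached by 5 of 10 (Tap1, Tap2, Tapbp, Psmb8 and Psmb9), where 7.23% of all genes did so. No gene of the 10 reached it with a higher level, where 5.7% of all genes did. In 9 of 10 the pair labelled KO lay wholly under the other pair, a pattern seen in 23.3% of all genes, the reverse being seen in 21.5%. Psmb10 was the gene that overlapped. Without labelled KO replicate 2 no gene of the 10 reached an unadjusted p under 0.05, and the median was -0.30, where the only pair left to show spread was the one labelled WT; under the other alternatives fixed at the start 4 to 7 genes reached it. Fewer cells of a type and less RNA per cell cannot be told apart in such bulk libraries.

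**Figure D1:**
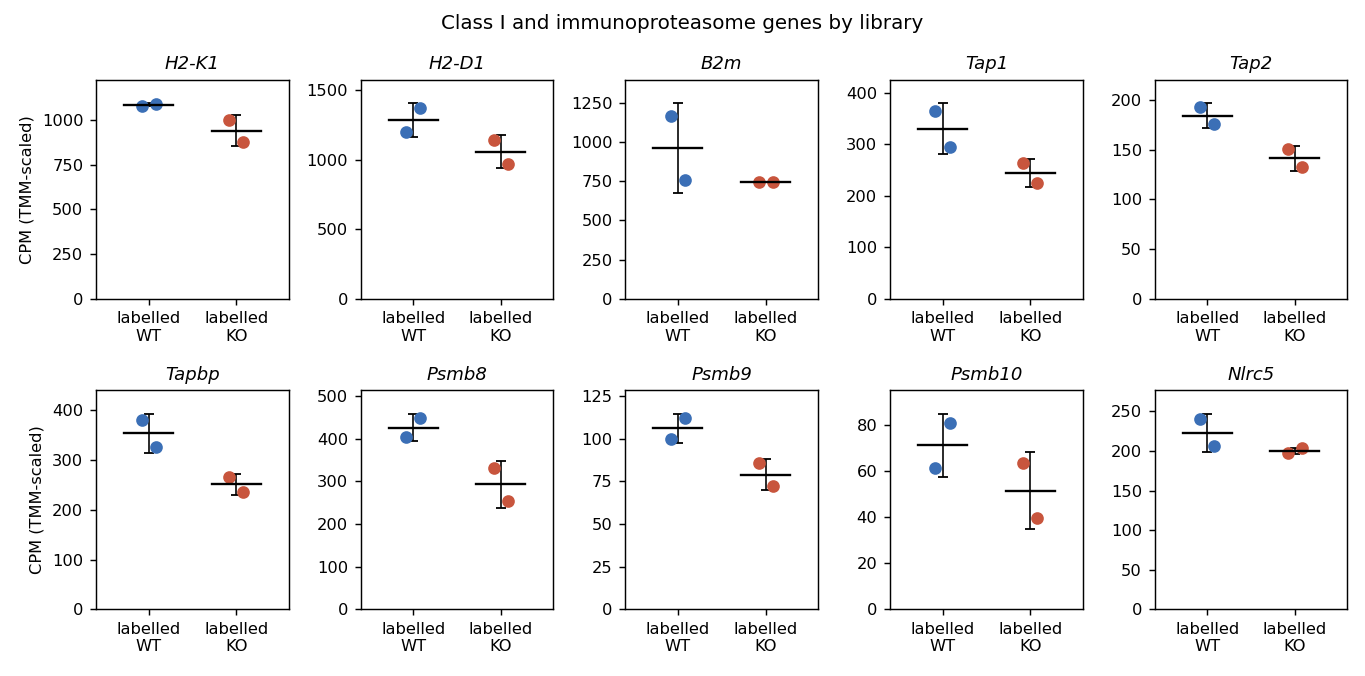
CPM (TMM-scaled) of the 10 genes, 1 point per library (2 labelled WT in blue, 2 labelled KO in red), with the mean (line) and SD (bar). In every panel but that of Psmb10 both red points lie under both blue points, and the SD bar of B2m is wide in the libraries labelled WT.

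The heavy chains present the peptide, and after Nlrc5 theirs were the fitted fold changes nearest to 0. H2-K1 stood at 1079 and 1091 CPM against 1001 and 877 CPM. The groups did not overlap, and labelled KO replicate 2 was the lowest. H2-D1 stood at 1198 and 1371 CPM against 1144 and 973 CPM, again with no overlap and with the same library lowest. The log2 fold changes were -0.21 (SE 0.13, 95% limits -0.51 and 0.09) for H2-K1 and -0.28 (SE 0.14, 95% limits -0.62 and 0.06) for H2-D1, with adjusted p values of 0.542 and 0.471 by edgeR. Without labelled KO replicate 2 they were -0.11 and -0.16, and H2-D1 was -0.18 without labelled WT replicate 2. The ratio of H2-D1 to H2-K1 per union exon length stayed between 1.26 and 1.43 over the 4 libraries.

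B2m encodes the light chain shared by all class I molecules. Its level was 1164 and 759 CPM against 747 and 745 CPM. Labelled WT replicate 1 stood well above the other 3, which lay close together. The means were 961 ± 286 CPM and 746 ± 1.36 CPM (SD, n = 2 each), and the log2 fold change was -0.37 (SE 0.20, adjusted p = 0.504 by edgeR). It was -0.02 when labelled WT replicate 1 was left out and -0.64 when the other library of that label was, so the difference rested on the first of these libraries. The summed heavy chains relative to B2m, in FPKM, were 0.394 and 0.670 against 0.582 and 0.500. On the log2 scale the labels differed by 0.07, with an exact permutation p of 1 (two-sided, n = 2 each), and the sign turned without labelled WT replicate 1 (-0.31) or labelled KO replicate 1 (-0.039).

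The transporter and the loading factor ranked the libraries alike. Tap1, which with Tap2 forms the peptide pump, stood at 365 and 295 CPM against 263 and 225 CPM. Tap2 stood at 193 and 175 CPM against 150.2 and 132 CPM. Tapbp, which encodes tapasin, the bridge between the empty class I molecule and the pump, stood at 382 and 326 CPM against 266 and 236 CPM. In all 3 genes labelled WT replicate 1 was the highest and labelled KO replicate 2 the lowest, with no overlap between labels.

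The log2 fold changes were -0.44 (SE 0.14) for Tap1, -0.38 (SE 0.12) for Tap2 and -0.49 (SE 0.13) for Tapbp, and their 95% limits all lay below 0. Tapbp had the lowest unadjusted p of the 10 (0.00603), and an adjusted p of 0.201 by edgeR and 0.0583 by DESeq2. For Tap1 and Tap2 the adjusted p values were 0.286 and 0.262 by edgeR. Tap1 was -0.27 without labelled WT replicate 1. The ratio of Tap1 to Tap2 per union exon length was 1.31 and 1.16 against 1.21 and 1.17.

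**Figure D2:**
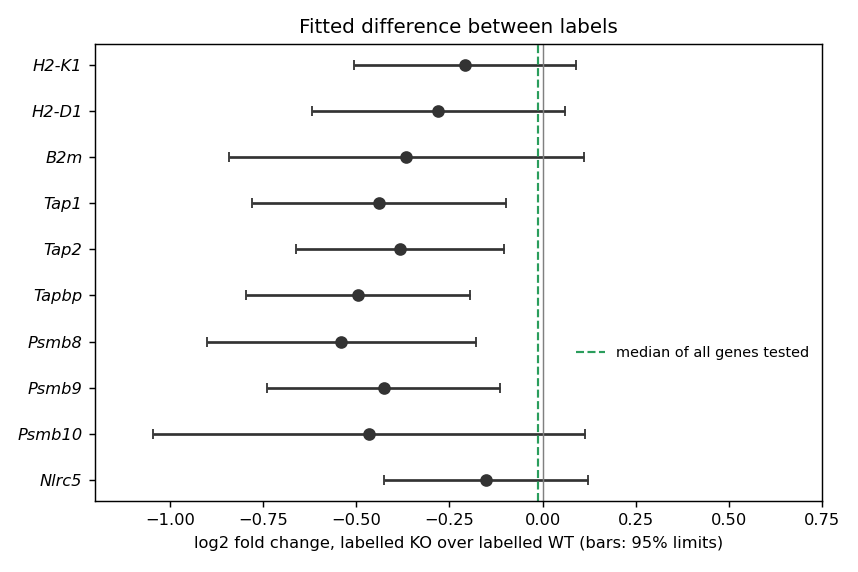
Fitted log2 fold change of each gene, labelled KO over labelled WT (points), with 95% limits (bars), the zero line (grey) and the median of all 13528 genes tested (green, -0.01). All 10 points lie left of the lines, and the bars of Tap1, Tap2, Tapbp, Psmb8 and Psmb9 do not reach 0.

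Psmb8, Psmb9 and Psmb10 encode the inducible catalytic subunits, also known as LMP7, LMP2 and MECL-1. Psmb8 had the largest difference of the 10 genes in the fit of all 4 libraries, with 403 and 449 CPM against 332 and 254 CPM. Psmb9 stood at 100.2 and 112 CPM against 85.6 and 72.5 CPM, with no overlap. Psmb10 stood at 61.5 and 80.9 CPM against 63.5 and 39.7 CPM, so labelled KO replicate 1 lay above labelled WT replicate 1. In all 3 genes labelled WT replicate 2 was the highest and labelled KO replicate 2 the lowest, whereas B2m, Nlrc5, Tap1, Tap2 and Tapbp were highest in labelled WT replicate 1.

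The log2 fold change of Psmb8 was -0.54 (SE 0.15, 95% limits -0.90 and -0.18), 1.45-fold lower, with an adjusted p of 0.238 by edgeR and 0.0656 by DESeq2. It was -0.43 (SE 0.13, adjusted p = 0.268 by edgeR) for Psmb9 and -0.47 (SE 0.24, adjusted p = 0.481 by edgeR) for Psmb10. With labelled KO replicate 2 left out they were -0.35, -0.31 and -0.16, and with labelled KO replicate 1 left out -0.75, -0.55 and -0.84. Psmb10 was -0.26 without labelled WT replicate 2.

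**Figure D3:**
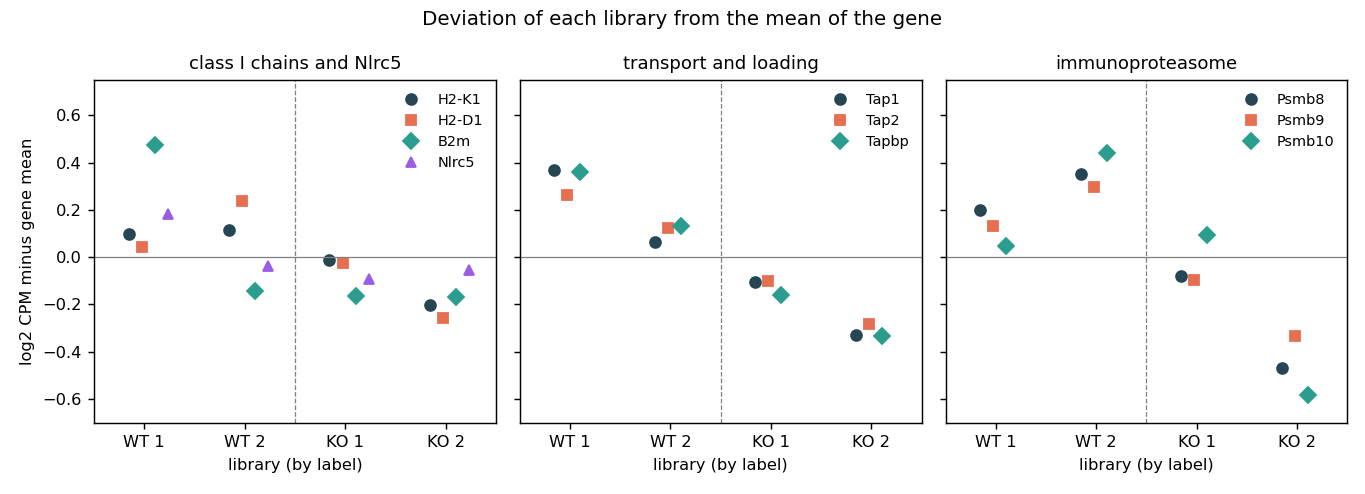
Each library's log2 CPM minus the mean of the gene over the 4 libraries, for the class I chains and Nlrc5 (left), the transporter and loading factor (middle) and the inducible subunits (right). The inducible subunits are highest in labelled WT replicate 2, while Tap1, Tap2, Tapbp, B2m and Nlrc5 are highest in labelled WT replicate 1.

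Each inducible subunit takes the place of 1 constitutive subunit: Psmb8 that of Psmb5, Psmb9 that of Psmb6 and Psmb10 that of Psmb7. The constitutive subunits differed little, with log2 fold changes of -0.04 for Psmb5, -0.14 for Psmb6 and -0.11 for Psmb7 (adjusted p 0.947, 0.686 and 0.762 by edgeR), and those of Psmb5 and Psmb7 turned sign without labelled WT replicate 2, as did that of Psmb5 without labelled KO replicate 2 (0.10). Psmb11, the thymus form, had 0 counts in every library. The ratio of Psmb8 to Psmb5 in FPKM was 1.09 and 0.916 against 0.726 and 0.673. That of Psmb9 to Psmb6 was 0.243 and 0.234 against 0.202 and 0.187. The ratio of Psmb10 to Psmb7 was 0.235 and 0.266 against 0.232 and 0.158. In all 3 pairs the groups did not overlap and the ratios were lower under the KO label, by little for Psmb10 to Psmb7. The 3 ratios come from the same 4 libraries, and how often other gene pairs split this way was not computed. Over the 3 pairs summed, the inducible to constitutive ratio was 0.601 and 0.555 against 0.456 and 0.394.

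On the log2 scale the summed ratio differed by -0.45 between labels, from -0.79 ± 0.08 to -1.24 ± 0.15 (SD, n = 2 each). The exact permutation p was 0.333, two-sided, the smallest that 2 against 2 libraries can give. With union exon lengths the difference was -0.44. The ratio itself depends on the length used, since Psmb10 to Psmb7 in labelled WT replicate 1 was 0.537 by union exon length. Psmb5 is uncertain too, because 71.7% of the 31-base words of its transcripts also occur in other genes, mostly the gene model Gm3375.

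**Figure D4:**
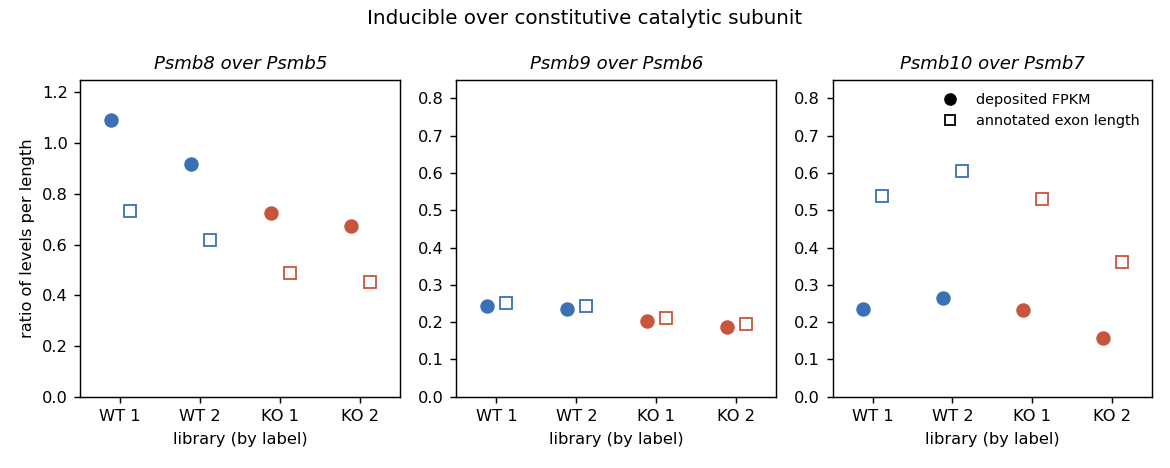
Ratio of each inducible subunit to the constitutive subunit it replaces, by library (blue labelled WT, red labelled KO), from deposited FPKM (filled circles) and from union exon lengths (open squares). The labelled KO libraries have the lower ratios in each pair on either scale, although labelled KO replicate 1 comes close to labelled WT replicate 1 for Psmb10 over Psmb7.

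Nlrc5, the transactivator of the set, had the smallest difference. It stood at 239.9 and 206 CPM against 198 and 203 CPM. Labelled WT replicate 1 was the highest and the other 3 lay close together. The log2 fold change was -0.15 (SE 0.12, 95% limits -0.43 and 0.12, adjusted p = 0.633 by edgeR), moving to -0.03 when labelled WT replicate 1 was left out and to -0.26 when the other library of that label was.

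Nlrc5 acts with a complex of RFX, CREB and NF-Y proteins, and NF-kappaB and interferon regulatory factors bind nearby sites. Of 12 such promoter factors tested, 0 passed over all genes. An unadjusted p under 0.05 with a lower level was seen in 7.23% of all genes and in 2 of the 12. These were Rfx5, a subunit of the RFX complex, at 23.1 and 23.1 CPM against 13.99 and 18.2 CPM (log2 fold change -0.52, adjusted p = 0.305 by edgeR), and Irf2, at 73.2 and 45.7 CPM against 40.8 and 41.0 CPM (-0.54, adjusted p = 0.385 by edgeR). Irf2 had labelled WT replicate 1 far above the other 3 libraries, as did B2m. Its value was -0.16 without that library and -0.84 without labelled WT replicate 2, fits that each leave a single library labelled WT. The NF-kappaB subunits Nfkb1 and Rela had log2 fold changes of 0.24 and -0.10. The median of the list was -0.11.

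Interferon signalling lies upstream of the set. Of 12 genes of this list tested, 0 passed over all genes by edgeR. An unadjusted p under 0.05 was reached with a lower level by 6 (7.23% of all genes) and with a higher level by 1 (5.7% of all genes). The median log2 fold change was -0.30. Ifngr1, the ligand-binding chain of the interferon gamma receptor, stood at 133 and 122 CPM against 72.6 and 64.7 CPM. That is 1.86-fold lower with no overlap (log2 fold change -0.89, SE 0.12), and its adjusted p was 0.0502 by edgeR and 1.13e-05 by DESeq2, the 1 gene of the list that DESeq2 called. With all 4 libraries Ifngr1 also passed with no filter (adjusted p = 0.0158 by edgeR) and with the replicate block (0.0196 by edgeR). It did not with other scaling (0.0517 and 0.0657 by edgeR) or on log2(FPKM + 1) (0.108 by limma). With single libraries left out its value ran from -0.98 to -0.81. Ifnar1, a chain of the type I interferon receptor, stood at 106 and 89.7 CPM against 61.9 and 70.3 CPM (-0.56, SE 0.14, adjusted p = 0.186 by edgeR).

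Ifng, which encodes interferon gamma itself, had values in the opposite direction, with 65.8 and 93.8 CPM against 93.5 and 161 CPM. The groups overlapped slightly, and labelled KO replicate 2 was the highest (log2 fold change 0.68, SE 0.27, adjusted p = 0.374 by edgeR). The value was 0.23 without that library, 1.02 without labelled KO replicate 1 and 0.45 without labelled WT replicate 1. The library with the most Ifng also had the lowest level of 9 of the 10 class I and immunoproteasome genes, by a narrow margin for B2m. Socs1, an inhibitor of JAK kinases, had 43.9 and 56.0 CPM against 80.6 and 57.2 CPM (0.46, adjusted p = 0.41 by edgeR), and its value ran from 0.19 without labelled KO replicate 1 to 0.70 without labelled KO replicate 2.

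Other class I and class I-like genes mostly had negative values too. Of 21 listed, 13 could be tested and 0 passed over all genes. An unadjusted p under 0.05 was reached by 7, all with lower levels, as by 7.23% of all genes. Negative log2 fold changes were seen in 11 of the 13, with a median of -0.32, and in 51.9% of all genes. The Qa genes H2-Q6 and H2-Q7, the most abundant per length, had log2 fold changes of -0.33 and -0.28 (adjusted p 0.306 and 0.354 by edgeR). H2-Q10 had 5.38 and 11.3 CPM against 3.31 and 4.01 CPM, and Fcgrt, the heavy chain of the neonatal Fc receptor, 39 and 167 counts against 23 and 31. In both genes labelled WT replicate 2 stood apart. Without it the log2 fold change went from -1.19 to -0.55 for H2-Q10 and from -1.74 to -0.62 for Fcgrt. Without labelled WT replicate 1 the values were -1.62 and -2.33, with the library that stood apart as the only one labelled WT.

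Genes that trim, load and fold peptides and class I chains, most of which serve many other proteins, were centred near 0. Of 13 tested, 0 passed over all genes, 5 had negative and 8 positive log2 fold changes, and the median was 0.02. An unadjusted p under 0.05 with a lower level was reached by 1 of the 13, a share near the 7.23% of all genes. This was Tapbpl, the tapasin relative that edits peptides, at 163 and 161 CPM against 131 and 119 CPM (-0.37, SE 0.11, adjusted p = 0.246 by edgeR). The chaperone Calr, the disulfide isomerase Pdia3 and the peptidase Tpp2 had log2 fold changes of 0.03, -0.11 and 0.19.

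The rest of the proteasome was also near 0. Among 11 other core subunits tested the log2 fold changes ran from -0.19 to 0.02 with a median of -0.08, and no gene had an unadjusted p under 0.05. Psmb1, Psma6 and Psma7 had values of -0.16, -0.04 and -0.19. Among 9 activators and assembly factors the median was -0.06, with no unadjusted p under 0.05. Psme2, a subunit of the interferon-inducible cap PA28, had 80.1 and 89.3 CPM against 74.5 and 60.8 CPM (-0.32, adjusted p = 0.412 by edgeR). Psme1, the other subunit of that cap, had 205 and 223 CPM against 208 and 202 CPM, with overlap (-0.06). Psme3, the nuclear cap subunit, had a log2 fold change of 0.22 and the assembly chaperone Psmg2 one of 0.11.

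**Figure D5:**
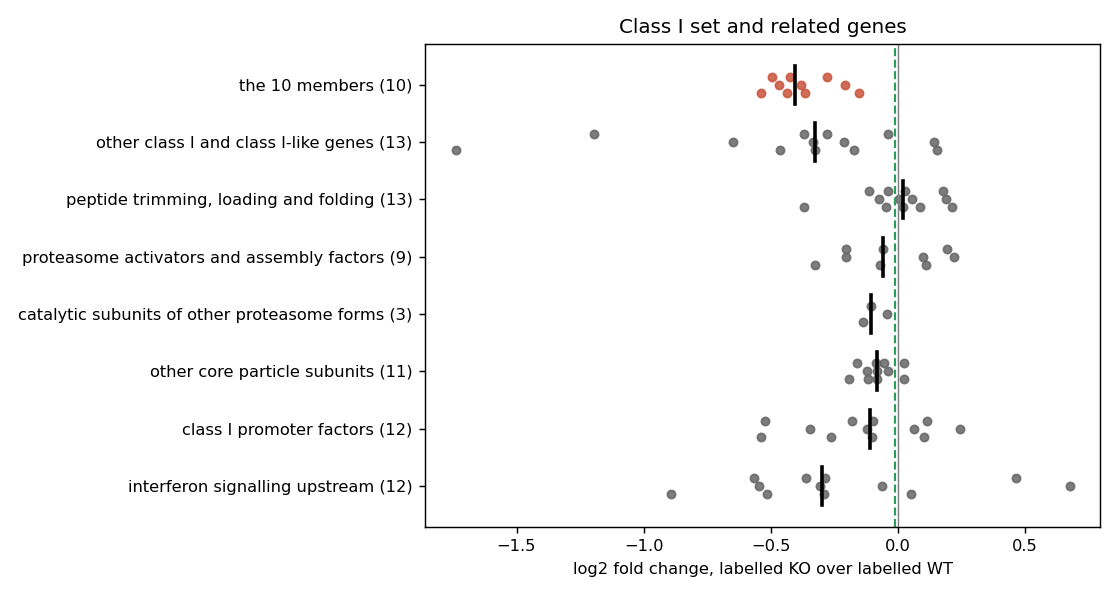
Log2 fold change, labelled KO over labelled WT, of each gene tested in the members (red) and 7 related lists (grey), with list medians (black bars), zero (grey line) and the median of all genes tested (green); numbers of genes stand in parentheses. The 10 members lie between -0.54 and -0.15, while 9 of the 11 other core subunits lie just left of 0.

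The 5 other genes whose pattern over the 4 libraries was nearest to the median of the 10 were Grcc10, Acsf2, Serhl, Cenpp and Ilk, among 9224 with a mean of at least 10 CPM. Their distances, in log2 CPM centred on the mean of each gene, were 0.048 to 0.065. Among the 10 themselves the distance to their median ran from 0.074 for Tap2 to 0.48 for Psmb10.

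Other cells that carry class I and class II molecules could add to these levels, so marker lists were summed. The 8 CD8 T cell markers summed to 2867 and 2616 CPM against 2533 and 2406 CPM. An unadjusted p under 0.05 was reached by 3 of the 8, all with lower values, as by 7.23% of all genes, and 0 passed over all genes. The CD3 chains Cd3d (173 and 175 CPM against 107 and 137 CPM, log2 fold change -0.52) and Cd3g (171 and 138 CPM against 118 and 114 CPM, -0.41) did not overlap between labels, nor did the kinase Lck (-0.30), which was chosen after its values were seen. Cd8b1 and Trac had log2 fold changes of -0.18 and -0.11. The rest of the list was near 0, with -0.01 for Cd8a, 0.01 for Cd3e and 0.04 for Zap70. The marker values were thus not lower throughout, and the part of these genes in the class I result was not tested.

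The 8 B cell markers summed to 426 and 367 CPM against 305 and 269 CPM, without overlap, and of this 406 and 345 CPM against 286 and 257 CPM were Ighm, the constant chain of IgM (log2 fold change -0.47). Cd79b, a chain of the B cell receptor, had 134 and 171 counts against 103 and 81 (-0.61). The 10 class II presentation genes summed to 126 and 152 CPM against 138 and 93.2 CPM, with overlap, and their members H2-Oa and H2-Ob had log2 fold changes of -0.73 and -0.96. The CD4 and regulatory T cell list summed to 14.8 and 23.2 CPM against 22.6 and 15.02 CPM. In it Cd4 had 39 and 80 counts against 133 and 74 (0.96), and Zbtb7b, a factor of the CD4 lineage, had 124 and 283 counts against 120 and 102 (-0.71).

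The remaining lists were low. Myeloid markers summed to 4.85 to 10.4 CPM, with 24 to 68 counts of Mpeg1 and 10 to 43 of Lyz2 per library, and S100a9 was at 0 in all 4. Dendritic markers summed to 7.07 to 12.2 CPM, nearly all from Itgax (32 to 96 counts) and Zbtb46 (60 to 113 counts), with overlap between labels for the sum. NK markers summed to 10.8 to 23.5 CPM, mostly Klrk1 (170 and 306 counts against 87 and 186), with Klre1 at 22 and 57 counts against 16 and 16. The other NK markers tested had positive log2 fold changes with overlap between labels. Klrb1c had 4 and 15 counts against 28 and 11 (1.19), and Ncr1 0 and 20 against 13 and 7 (0.19). Erythroid markers summed to 0.677 to 3.65 CPM, with 6 to 27 counts of Hba-a1, and Alas2 was at 0 in all 4. By edgeR and by DESeq2 no marker of any list was called. Outside the CD8 list an unadjusted p under 0.05 was reached with lower values by 2 of 8 B cell markers tested (Ighm and Cd79b). Zbtb7b (1 of 4 in its list) and Klre1 (1 of 4 NK markers tested) also reached it with lower values, and Cd4 with a higher value. Over all genes 7.23% reached it with lower and 5.7% with higher values. No class II, myeloid, dendritic or erythroid marker tested reached it. The part of other cell types in the class I and immunoproteasome differences was not tested.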

How the data were processed

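Counts per gene of 4 libraries of spleen CD8+ T cells were used. Per the file headers, the authors deposited whole-number counts per gene and FPKM (counts scaled for gene length and library total). The submitters' processing notes name kallisto and GRCm38, with no version of the former. The library kit is stranded; no source used here states which step gave whole numbers or whether counting used strand. Columns were joined to samples through their description codes. The table holds 8 further columns of values, which were not used.

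Genes were filtered with filterByExpr, scaled by TMM and tested with edgeR 4.0.16 (R 4.3.3) by the quasi-likelihood F test, two-sided, labelled KO minus labelled WT, adjusted by Benjamini-Hochberg over 13528 genes at a threshold of 0.05. The method was tested on simulated data. A standard error is the log2 fold change over the square root of F. DESeq2 1.42.0 and limma 3.58.1 gave alternatives, as did other scaling, no filter, single libraries left out and a replicate block. Between 2 and 2 libraries an exact test cannot go below 0.333, so adjusted p values rest on a spread pooled across genes.

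Lengths came from exons of GENCODE M21 (GRCm38), and promoter sequences from RefSeq (GRCm38.p6). Members and lists were chosen with earlier results of these data known. Of each list, the 2 genes of lowest p and the 2 of highest mean FPKM were named. Lck, Cd8a, Cd3e, Zap70, S100a9, Alas2, H2-Eb1, Psmb11, Psme1, Cd40lg, Foxp3, Klrb1c and Ncr1 were named besides, after their values were seen. A further motif and 1 marker are not reported here.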

Additional observations from a re-analysis of the deposited data

How the results depend on the processing

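No class I or immunoproteasome gene passed the threshold in any of the 11 alternatives fixed at the start, and all 10 log2 fold changes stayed negative in each of them. The median ran from -0.51 to -0.30 with single libraries left out. The summed immunoproteasome ratio kept its sign, from -0.55 to -0.34. The heavy chain to B2m ratio did not, and ran from -0.31 to 0.45. Over all genes the number called was 253 by DESeq2, 146 with no filter, 5 on log2(FPKM + 1), 4 on log2(FPKM + 0.1), 123 with the replicate block and 8 to 304 with single libraries left out. Such a fit takes part of its spread from 1 pair alone, and the lone library is assumed to vary like the rest.

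With the replicate number as a block 0 of the 10 genes passed, with a median of -0.41. Deviations of same-numbered libraries correlated at -0.17 across genes. With 2 libraries per label crossed numbers must give the mirror value (0.17), so this cannot decide whether the numbers pair the libraries. A block on crossed numbers, chosen after seeing the data, called 12 genes and 0 of the 10.

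Values close to 0 changed sign with single libraries left out: Calr ran from -0.0554 to 0.12, Psma6 from -0.0894 to 0.0129, Psmb5 from -0.22 to 0.17, Psmb7 from -0.21 to 0.00692 and Psmg2 from -0.12 to 0.39. The cause was not tested. With 2 libraries per label the precision is limited by their spread rather than by depth, since each of the 10 genes had at least 573 counts in every library.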

Other observations

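Class II genes, which CD8+ T cells of the mouse are not known to express at high levels, were counted in all 4 libraries. Cd74, the invariant chain, had 420 and 729 counts under the WT label against 458 and 310 under the KO label. H2-Eb1, a class II beta chain, had 43 and 205 counts against 67 and 46, so labelled WT replicate 2 stood above the other 3. The same library was the highest for Fcgrt, with 39 and 167 counts against 23 and 31. H2-DMa, the peptide exchange factor, was spread more evenly, with 744 and 812 counts against 842 and 665. By edgeR none of the 10 class II genes passed over all genes, 0 had an unadjusted p under 0.05, and DESeq2 called 0. H2-Eb1 was chosen after its values were seen.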
